A study of Capra hircus with 13 samples.

Results

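The inhibitor of DNA binding (ID) genes *ID1*, *ID2*, *ID3* and *ID4* were examined in goat oocytes and cleavage-stage embryos. The 4 genes were chosen by family membership and because *ID2* is among the furthest rises between the oocyte and the embryo, and they are 4 of the 27161 gene names in the tables and of the 18138 names listed for all 13 libraries. The libraries were poly(A) RNA-seq libraries made by the Smart-seq2 method, with 3 each from untreated mature (MII) oocytes, untreated 4-cell embryos and untreated 8-cell embryos, and 2 each from 8-cell embryos that received *YTHDF2* siRNA (siYTHDF2) or a negative control siRNA (NC). *YTHDF2* encodes a reader of N6-methyladenosine that sends marked mRNAs to decay. Oocytes from slaughterhouse ovaries were matured in vitro, embryos came from in vitro fertilization (IVF), siYTHDF2 was injected at 20 µM into zygotes 8 h post-IVF, and each injected library held 15 pooled embryos taken 72 h post-IVF. The treatment label of the NC libraries is an injection of control siRNA, while their titles call them WT, and they are taken here by the treatment label. No embryos labelled as injected without siRNA were included. The untreated libraries were taken over from 2 earlier studies, and the study behind each library, their pool sizes, and the breed, age and genotype of the animals are not given in the sources used here, so the stage and the study cannot be told apart.

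ID proteins hold a helix-loop-helix domain but lack the basic region that contacts DNA. They pair with E proteins (TCF3, TCF4 and TCF12) and so keep E proteins from binding DNA together with tissue-specific class II basic helix-loop-helix (bHLH) factors. ID genes are classic targets of bone morphogenetic protein (BMP) signalling through SMAD1, SMAD5 and SMAD9, and they are known for holding cells in an undifferentiated, dividing state.

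All values are FPKM, fragments scaled by the exon length of the gene and by the mapped fragments of the library, and can be compared between genes within a library. The untreated libraries held 26853876 to 42495116 fragments. The values of 17366 of the 17918 genes above 0 in the stage tables stepped by whole fragments, the ID genes among them, so the fragments are given beside low values. The genes listed for all 3 stages took 64.8 to 66.3% of the fragments of the MII libraries and 94.7 to 97.0% of those of the embryo libraries, and the median of all 9090 genes fitted was 0.29 higher in 4-cell and 0.37 higher in 8-cell embryos than in MII oocytes on the log2(FPKM + 1) scale. Rescaling by median ratios turned the 1518 higher and 551 lower genes of 4-cell embryos into 934 and 897, and the 1804 and 740 of 8-cell embryos into 1139 and 1158. The MII libraries held all 10 listed oocyte markers, led by *KPNA7* at 1417, 1448 and 1828 FPKM.

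MII replicate 3 stood apart from the other MII libraries in some of the cumulus and granulosa genes. *TNFAIP6*, a matrix gene of the expanding cumulus, was at 1.25, 0.782 and 19.3 FPKM in MII replicates 1, 2 and 3. *PTX3*, another matrix gene, was at 0, 0.0615 and 2.35 FPKM. *INHA*, an inhibin subunit of granulosa cells, was at 0, 0.0255 and 1.36 FPKM, and the FSH receptor *FSHR* was at 0 in the first pair and 0.248 FPKM in replicate 3. *HAS2* (9.79, 9.99 and 8.15 FPKM), *STAR* (29.5, 34.0 and 29.1), *CYP19A1* (0.328, 0.531 and 0.292) and *LUM* (2.06, 1.80 and 1.43) were instead lowest there. Of the 14 listed markers 7 were highest in replicate 3, the summed level was 122, 113 and 143 FPKM, and *AMH* was at 0 in all 3 libraries. For untreated embryos 15 markers were listed. Their sum was 128 to 143 FPKM at the 4-cell and 206 to 221 FPKM at the 8-cell stage. *TNFAIP6* was at 1.42 to 6.14 FPKM in 4-cell embryos and at 4.47, 19.5 and 19.8 FPKM in 8-cell embryos. The part of such cells in the ID values of embryos was not tested. Replicate 1 of the 8-cell libraries had correlations of 0.854 and 0.898 with the other replicates over log2 values, against 0.966 between the other pair. Sperm markers summed to 0.216 to 1.06 FPKM in the untreated libraries and to 5.13 to 27.1 FPKM in the injected ones. The blood marker *PTPRC* was at 0.0129 to 0.0480 FPKM in MII oocytes, 0.0552 to 0.287 FPKM in untreated 4-cell and 0.190 to 1.02 FPKM in untreated 8-cell embryos and 0.40 to 0.65 FPKM in injected embryos.

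*ID2* went from 4 to 324 fragments per library in MII oocytes to one of the more abundant mRNAs of the embryo. It was at 0.232, 0.0817 and 5.49 FPKM in the MII libraries, from 11, 4 and 324 fragments. The 4-cell libraries held 84.9, 104 and 115 FPKM of *ID2*, and the 8-cell libraries 419, 346 and 373 FPKM. The libraries of the 3 stages did not overlap, with every 8-cell value above every 4-cell value and every 4-cell value above every MII value. *ID2* stood at place 11025, 13634 and 4428 among the 18858 genes listed for MII, and at place 110, 167 and 141 of the 21826 genes listed for 8-cell embryos.

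The highest MII value of *ID2* lay in replicate 3, the library with the cumulus and granulosa genes named above, and the part of those cells in that value was not tested. The mean of *ID2* was 1.94 ± 3.08 FPKM (SD, n = 3) in MII oocytes, 101 ± 15.2 (n = 3) in 4-cell and 380 ± 37.0 (n = 3) in 8-cell embryos. Ratios of these means were 52.4-fold and 196-fold against MII oocytes. Without MII replicate 3 the ratios were 647-fold and 2423-fold, so that library set the size of the ratios, and the direction held without it. A ratio from whole libraries cannot tell more cells with a transcript from more RNA per cell.

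The fitted change of *ID2* on the log2(FPKM + 1) scale was 5.63 ± 0.57 (SE) for 4-cell embryos against MII oocytes, 7.53 ± 0.57 for 8-cell embryos against MII oocytes, and 1.90 ± 0.57 from the 4-cell to the 8-cell stage. These values chose the gene and are a description without a test, and the first pair shares the MII libraries. By size alone, *ID2* stood at place 6 of the 9090 genes fitted in 4-cell and at place 11 in 8-cell embryos against MII oocytes, and at place 90 from the 4-cell to the 8-cell stage. *SUPT4H1*, a transcription elongation factor, was at 5.31 and 8.40, and the homeobox gene *ARGFX* at 4.48 and 7.11. The choice of *ID2* rested on a narrower ranking, of genes past the threshold of the study (p under 0.05 and more than 2-fold) with groups apart and a mean of at least 10 FPKM, where it stood at place 1 of 860, 2 of 863 and, from the 4-cell to the 8-cell stage, 21 of 98.

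*ID3* followed the opposite course and was the ID gene of the oocyte. It was at 64.7, 87.9 and 95.3 FPKM in MII oocytes, a mean of 82.6 ± 15.9 (SD, n = 3). At the 4-cell stage the libraries were spread over 69.2, 242 and 30.5 FPKM, a range that takes in all MII values, and the fitted change was -0.02 ± 0.64 (SE, log2). In 8-cell embryos *ID3* was at 45.3, 20.2 and 17.7 FPKM, all below the MII libraries. The mean of 27.8 ± 15.3 (n = 3) lay 2.98-fold under that of MII oocytes, with a fitted change of -1.64 ± 0.64. The 4-cell and 8-cell values overlapped, and their fitted difference of -1.62 ± 0.64 was -0.83 without 4-cell replicate 2, the library at 242 FPKM.

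*ID1* stayed low throughout. In MII oocytes it was at 0.207, 0.0287 and 1.48 FPKM, from 7, 1 and 62 fragments, and again replicate 3 was the highest. At the 4-cell stage it was at 0.0352, 1.62 and 0.705 FPKM, from 1, 43 and 20 fragments. The MII and 4-cell libraries overlapped, and 1 library of each lay under the floor of 3 fragments per library. In 8-cell embryos *ID1* was at 6.15, 2.28 and 4.00 FPKM, from 165, 62 and 120 fragments, above every earlier library. Against MII oocytes the fitted change was 0.20 ± 0.46 (SE, log2) in 4-cell and 1.75 ± 0.46 in 8-cell embryos. The ratio of the 8-cell to the MII mean was 7.26-fold with all libraries and 35.2-fold without MII replicate 3.

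*ID4* was also low, and like *ID1* it lay above the earlier libraries only in 8-cell embryos. It was at 0.179, 0.625 and 0.710 FPKM in MII oocytes, from 15, 54 and 74 fragments, and at 0.837, 0.638 and 0.768 FPKM at the 4-cell stage, where the groups overlapped. All 8-cell libraries, with 2.78, 2.48 and 1.57 FPKM, lay above the 6 earlier libraries. Against MII oocytes the fitted change was 0.23 ± 0.26 (SE, log2) in 4-cell and 1.12 ± 0.26 in 8-cell embryos, and it was 0.89 ± 0.26 from the 4-cell to the 8-cell stage. *ID1* and *ID4* reached the mean of 1 FPKM needed for the fit only through the 8-cell libraries.

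Counted over the family, *ID2* alone lay above all MII libraries in 4-cell embryos, while 37.8% of all genes tested did so. In 8-cell embryos *ID1*, *ID2* and *ID4* lay above all MII libraries and *ID3* lay below them, where 36.4% and 13.7% of all genes tested did so. From the 4-cell to the 8-cell stage *ID1*, *ID2* and *ID4* lay higher without overlap, against 11.6% of all genes tested. The stage values chose the genes, so nothing is read from these counts.

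**Figure D1:**
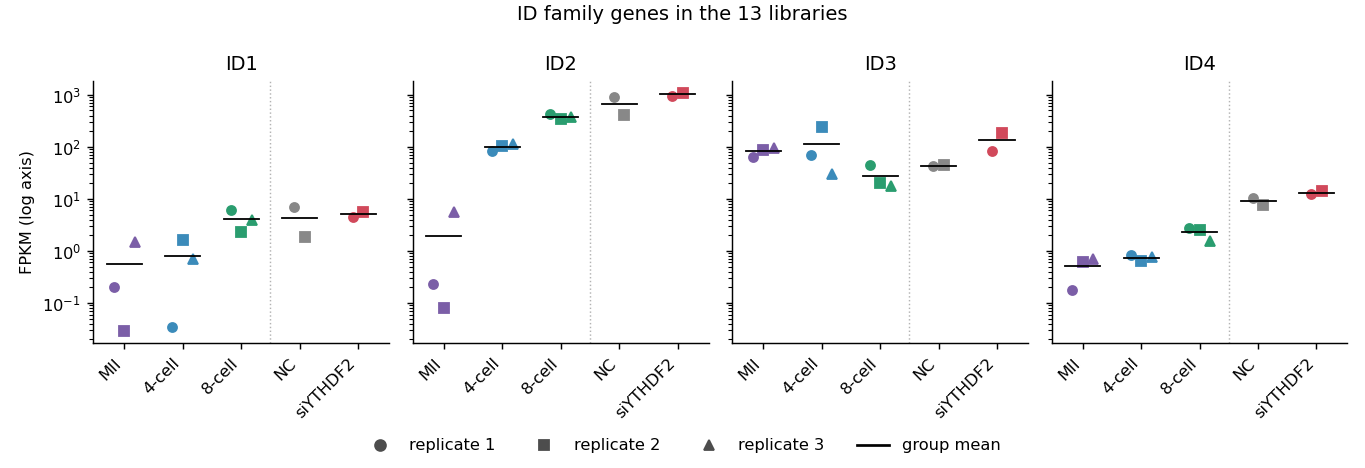
FPKM of the 4 ID genes in each of the 13 libraries on a log axis, 1 panel per gene, with points for libraries and horizontal lines for group means. *ID2* climbs from 0.0817 to 5.49 FPKM in MII oocytes to 346 to 419 FPKM at the 8-cell stage, while *ID3* goes from 64.7 to 95.3 FPKM to 17.7 to 45.3 FPKM. The injected libraries were normalized apart from the untreated ones.

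The 2 abundant members changed places. *ID3* made up 99.1, 99.2 and 92.5% of the summed FPKM of the 4 genes in MII oocytes. In the 4-cell libraries *ID2* made up 54.8, 30.0 and 78.2% and *ID3* 44.6, 69.4 and 20.8%, so the order of the pair differed among libraries of that stage. In the 8-cell libraries *ID2* made up 88.5, 93.3 and 94.1%, and *ID3* 4.47 to 9.57%. *ID1* and *ID4* never reached 2% of the sum in any of the 13 libraries, and their levels overlapped at each untreated stage. A share within a library does not depend on the scaling of that library.

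The sum of the 4 genes was 65.3 to 103 FPKM in MII oocytes, 147 to 348 FPKM in 4-cell and 371 to 474 FPKM in 8-cell embryos. Set against the summed FPKM of *TCF3*, *TCF4* and *TCF12*, the E proteins they bind, the ratio was 4.72, 6.44 and 6.65 in MII oocytes. It was 12.0, 29.6 and 14.7 in 4-cell embryos and 13.4, 39.4 and 20.4 in 8-cell embryos. The 4-cell and 8-cell ratios overlapped, and all 6 lay above the MII ratios. The stage values of *ID2*, which chose the genes, enter these sums and ratios, so nothing is read from that separation. The lowest 8-cell ratio belonged to replicate 1, where *TCF3* was at 23.5 FPKM against 5.76 and 1.72 FPKM in the other 8-cell libraries.

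**Figure D2:**
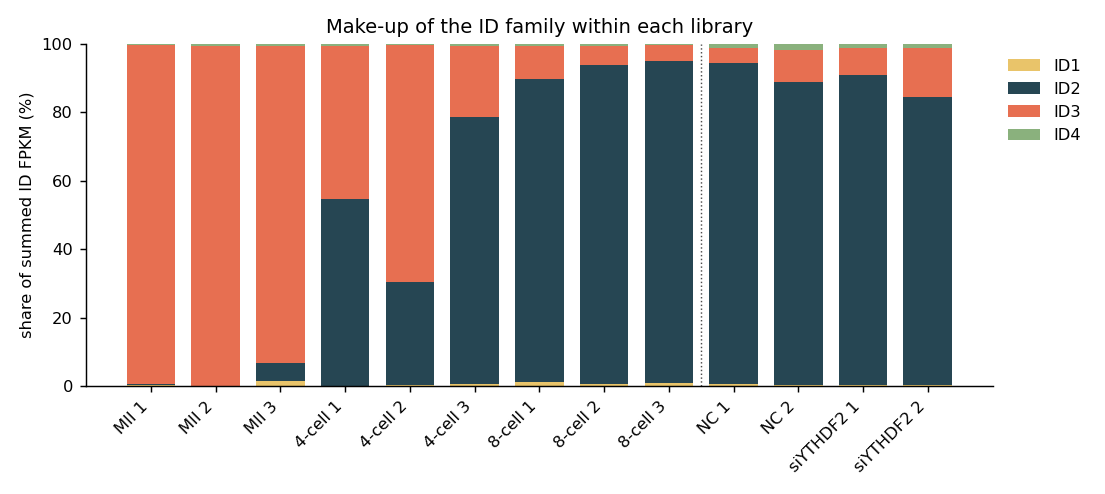
Share of each ID gene in the summed FPKM of the 4 genes, in percent on the vertical axis, with 1 stacked bar for each of the 13 libraries and a dotted line between the untreated and the injected libraries. *ID3* makes up 92.5 to 99.2% in MII oocytes and *ID2* 88.5 to 94.1% in untreated 8-cell embryos.

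**Figure D3:**
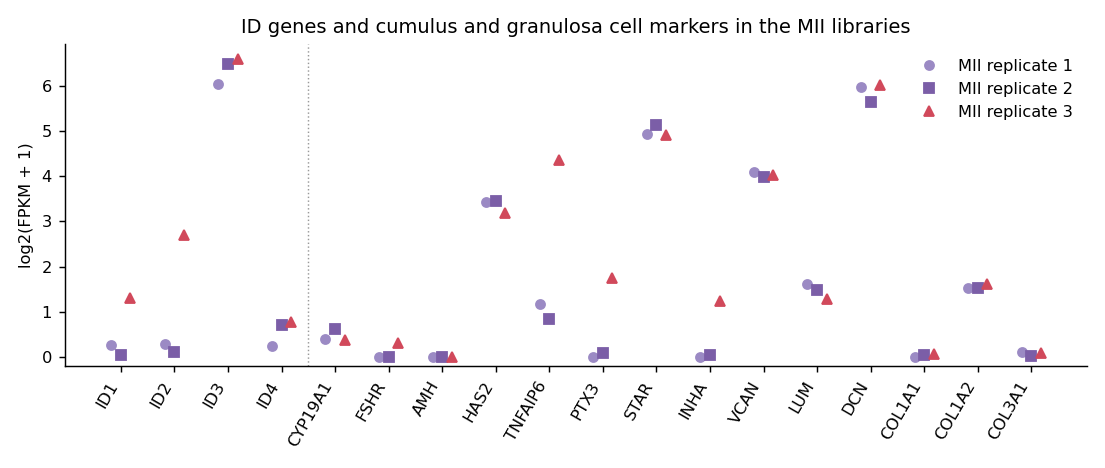
Levels as log2(FPKM + 1) on the vertical axis of the 4 ID genes and of the 14 listed cumulus and granulosa markers in the 3 MII libraries, with 1 point per library. *TNFAIP6*, *PTX3* and *INHA* stand apart in replicate 3, as do *ID1* at 1.48 FPKM and *ID2* at 5.49 FPKM, while *ID3* and *ID4* are highest there by a small margin. Of the 14 markers 7 are highest in replicate 3, and *HAS2*, *STAR*, *CYP19A1* and *LUM* are lowest there.

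The genes that act around the ID family were compared between stages with limma on log2(FPKM + 1), and an adjusted p below is the Benjamini-Hochberg value of limma over all genes of the fit. No E protein passed the threshold of the study between stages when all libraries were fitted as deposited with a pseudocount of 1. *TCF4* was 5.66 to 6.37 FPKM in MII oocytes and 2.70 to 3.36 FPKM in 4-cell embryos (log2 change -0.76 ± 0.24 SE, adjusted p = 0.041, limma), and it was at 4.68 to 8.34 FPKM in 8-cell embryos (0.94 ± 0.24 against 4-cell, adjusted p = 0.045, limma). Rescaled by median ratios, or to the summed FPKM of the shared genes, *TCF4* passed the threshold in 4-cell embryos, at -1.01 and -1.20. From 4-cell to 8-cell embryos *TCF4* passed with a pseudocount of 0.1 (1.12), with voom (1.14), with the summed FPKM of the shared genes (1.01) and without 8-cell replicate 2 (1.17), while its adjusted p was 0.034 to 0.098 over the alternatives that kept every library, and 0.024 without 8-cell replicate 2 but 0.063 to 0.14 when any other single library was left out. The 4-cell difference from MII oocytes had an adjusted p of 0.074 with the block, 0.068 with no filter, and 0.020 to 0.12 without 1 library (limma), above 0.05 when any 1 of the MII or 4-cell libraries, or 8-cell replicate 3, was left out. *TCF3* and *TCF12* had changes from -0.79 to 1.05 with standard errors of 0.67 and 0.32, and the *TCF3* difference between 4-cell and 8-cell embryos was 0.22 without 8-cell replicate 1, the highest library, and 1.80 without replicate 2, where it passed the threshold (adjusted p = 0.080, limma). Of the 96 genes of the lists, 73 were listed and 32 passed the filter of 1 FPKM. At the 4-cell stage 9 rose and 1 fell against MII oocytes, of which 8 and 1 also passed by adjusted p, beside 16.7% and 6.06% of all genes by the threshold of the study and 15.4% and 5.09% with the adjusted p. Under the 3 rescalings (median ratios, quantiles and summed FPKM) the rises were 3 each and the falls 3, 2 and 4. The median change of the 32 genes was 0.31, against 0.29 for all genes.

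Several of these rises lay in the BMP pathway. At the 4-cell stage the median changes of the BMP ligands and receptors tested were -0.18 and 0.18, below the 0.29 of all genes. Those of the SMADs and of the antagonists and inhibitors were 0.63 and 0.39, above it. *SMAD5*, which carries the BMP signal to the nucleus, was at 47.0 to 63.3 FPKM in MII oocytes, 161 to 191 FPKM in 4-cell and 128 to 227 FPKM in 8-cell embryos. The changes against MII oocytes were 1.66 ± 0.24 (SE, log2, adjusted p = 0.0011, limma) and 1.80 ± 0.24 (adjusted p = 0.00051, limma). At the 4-cell stage 2 of the 4 SMADs rose, *SMAD5* and *SMAD9*, as did 2 of the 5 BMP receptors, *ACVR2A* and *BMPR2*, by 1.06, 1.45 and 1.20 for the last 3. Of all genes tested 16.7% were called higher there, and nothing is read from counts this small. *USP1*, a deubiquitinase known to stabilise ID proteins, rose by 1.25 ± 0.18 (adjusted p = 0.0012, limma) in 4-cell and by 1.48 ± 0.18 (adjusted p = 0.00035, limma) in 8-cell embryos. It went from 66.3 to 73.3 FPKM in MII oocytes to 173 to 220 FPKM at the 8-cell stage. The oocyte ligand *GDF9* rose by 1.11, the secreted glycoprotein *FSTL1* by 1.26, the repressor *HEY2* by 1.79 and the myogenic bHLH gene *MYF6* by 1.01 at the 4-cell stage, the last with an adjusted p of 0.057. *SMAD5*, *ACVR2A* and *HEY2* passed under each of the 3 rescalings, and the other 6 rises under none of them. Without 1 library *GDF9* (0.97 without MII replicate 1, 0.92 without MII replicate 3), *SMAD9* (0.86 without 4-cell replicate 1) and *MYF6* (0.74 and 0.91 without MII replicate 1 or 3, and under 2-fold without 4-cell replicate 2 or 3) lost the call.

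In 8-cell embryos 7 list genes rose and 2 fell against MII oocytes, with 6 and 1 by adjusted p, beside 19.8% and 8.14% of all genes, and 18.5% and 7.58% with the adjusted p. Under the 3 rescalings, in the same order, the rises were 5, 6 and 5 and the falls 5, 6 and 6. The median was 0.56 against 0.37 for all genes. The oocyte bHLH factor *FIGLA*, an E protein partner, fell at both stages, with changes of -1.47 (adjusted p = 0.044, limma) and -1.43 (adjusted p = 0.042, limma). Without MII replicate 2, the highest library, these were -0.87 and -0.83 and not called, and without 8-cell replicate 3 the second was -1.19 and not called. Over the alternatives that kept every library the adjusted p was 0.017 to 0.10 at the 4-cell and 0.011 to 0.089 at the 8-cell stage, above 0.05 with no filter and with voom, and without 1 library it was 0.027 to 0.13 and 0.024 to 0.14 (limma). *MYF5*, another E protein partner, fell by 1.18 in 8-cell embryos (adjusted p = 0.069), and was not called without MII replicate 2 or 3 or 8-cell replicate 1 (-1.14, -0.91 and -0.90). Other rises were *HES6* by 2.15 (adjusted p = 0.056), *SKI* by 1.33 and the BMP antagonist *GREM1*, from a mean of 0.821 ± 0.231 FPKM (SD, n = 3) to 4.82 ± 3.59 FPKM (n = 3). *HES6* was at 0 to 0.0117 FPKM in MII oocytes, and at 20.2 FPKM in 8-cell replicate 1 against 0.920 and 1.16 FPKM in the others. It reached the filter of 1 FPKM only through that library, could not be fitted without it, and so had to differ. *HEY2* rose by 1.17 and *ACVR2A* by 1.27. *HEY2* passed under none of the 3 rescalings (0.87, 0.80 and 0.83), and *ACVR2A* was just under 2-fold with median ratios and with the summed FPKM (0.99). Without 8-cell replicate 1 *SKI* was at 0.96 and *ACVR2A* just under 2-fold, and without 8-cell replicate 2 *HEY2* was at 0.94. Without MII replicate 3 and 8-cell replicate 1 together, the count of rises was 4 in place of 7. From the 4-cell to the 8-cell stage 2 genes rose and none fell, with 1 of them by adjusted p, beside 4.55% and 4.28% of all genes, and 2.29% and 3.17% with the adjusted p. The list had a median change of 0.18 against 0.072 for all genes. They were the ligand *BMP4*, from 0.236 to 2.46 FPKM to 5.83 to 8.22 FPKM (log2 change 1.65 ± 0.38, adjusted p = 0.032, limma, and 0.031 to 0.068 over the alternatives that kept every library and 0.039 to 0.074 without 1 library), and *GREM1* (1.12 ± 0.43, adjusted p = 0.15, limma), which was not called without 4-cell replicate 1 or 3 or 8-cell replicate 1 (1.08, 0.90 and 0.65), nor with quantiles (0.96).

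The second comparison asked what loss of *YTHDF2* did at the 8-cell stage. The embryos received a mixture of 2 siRNAs, and their antisense strands are shown because the seed, bases 2 to 8 from the 5′ end and in capitals, is the part that guides the choice of target.
s28148: uUGCUAGCaauaucagcccaa
s28147: uGGUCUAUaguauucaugcca
*YTHDF2* was at 112 and 159 FPKM in the NC libraries and at 8.07 and 4.47 FPKM in the siYTHDF2 libraries (log2 change -4.25 ± 0.43, adjusted p = 0.00037, limma), as the labels say.

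*ID3* was the ID gene with the largest difference. It was at 42.8 and 43.9 FPKM in the NC libraries and at 81.9 and 185 FPKM in the siYTHDF2 libraries. Both siYTHDF2 libraries lay above both NC libraries, and they differed from each other by more than the NC libraries did. The ratio of means was 3.08-fold, and the fitted change of 1.49 ± 0.44 (SE, log2, 95% interval 0.54 to 2.43) passed the threshold of the study but not the adjusted one (adjusted p = 0.052, limma). Without siYTHDF2 replicate 2 the change was 0.90 with an adjusted p of 0.35, so the call rests on that library.

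*ID2* was at 898 and 414 FPKM in the NC libraries and at 946 and 1087 FPKM in the siYTHDF2 libraries, place 84 and 229 against 54 and 53 of the 27121 genes listed. The siYTHDF2 values lay above the NC values, and the gap to NC replicate 1 was smaller than the gap between the NC libraries. The fitted change was 0.73 ± 0.41 (SE, log2, 95% interval -0.13 to 1.60, adjusted p = 0.24, limma). It was 1.29 without NC replicate 1, past the threshold of the study (adjusted p = 0.11, limma), and 0.17 without NC replicate 2.

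*ID4* was at 10.6 and 7.57 FPKM in the NC libraries and at 12.2 and 13.9 FPKM in the siYTHDF2 libraries, without overlap. The fitted change was 0.49 ± 0.42 (95% interval -0.41 to 1.40, adjusted p = 0.45, limma). *ID1* was at 6.90 and 1.83 FPKM in the NC libraries and at 4.58 and 5.61 FPKM in the siYTHDF2 libraries, inside the NC range. Its fitted change was 0.36 ± 0.50 (95% interval -0.71 to 1.43, adjusted p = 0.65, limma), and it was -0.38 without NC replicate 2.

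Of the 4 ID genes, then, 1 passed the threshold of the study and none the adjusted one, beside 9.48% and 2.06% of all 11004 genes tested that were called higher by each rule. *ID2*, *ID3* and *ID4* lay above the NC libraries without overlap, beside 30.3% of all genes tested. *ID2* made up 93.7 and 88.6% of the family in the NC and 90.6 and 84.1% in the siYTHDF2 libraries. *ID3* made up 4.46 and 9.40% against 7.83 and 14.3%, and these shares overlapped. The ratio of the ID sum to the E protein sum was 70.1 and 54.7 in the NC and 80.2 and 101 in the siYTHDF2 libraries.

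Oocyte markers moved with the siRNA group as well. All 10 listed markers were higher in both siYTHDF2 libraries than in both NC libraries, and their summed level was 3117 and 2069 FPKM in the NC against 4326 and 4662 FPKM in the siYTHDF2 libraries. *ZP2*, a zona pellucida gene, was at 148 and 122 FPKM against 232 and 575 FPKM, and 7 of the 10 markers were, like *ID3*, higher in siYTHDF2 replicate 2 than in replicate 1. *KPNA7*, the most abundant, was at 2364 and 1589 FPKM against 3352 and 2765 FPKM, with *ZP3* and *NLRP5* also higher in replicate 1. Of 16 listed cumulus and granulosa markers 5 were higher and 2 lower in both siYTHDF2 than in both NC libraries, beside 30.3% and 30.7% of all genes tested. Their sums were 79.2 and 68.6 FPKM against 126 and 126 FPKM, and *FSHR* and *INHA* were at 0 in all 4 libraries. In the untreated libraries the oocyte markers summed to 2950 to 3937 FPKM in MII oocytes and to 3876 to 5752 FPKM in 8-cell embryos. Unlike *ID3*, their sum was thus not lower in 8-cell embryos. The part of oocyte transcripts and of cumulus or granulosa cells in the *ID3* difference was not tested.

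Of the list genes around the family, 94 were listed and 50 passed the filter in the injected libraries. By the threshold of the study 5 rose and 5 fell, of which none and 2 also passed by adjusted p, beside 9.48% and 15.3% of all genes, and 2.06% and 5.92% with the adjusted p. The counts were 9 and 3 with quantiles, 8 and 3 without NC replicate 1, and 3 and 7 without NC replicate 2. The median change was 0.094, against 0.0054 for all genes. Those that passed by adjusted p were class II bHLH genes, *HAND2*, a factor of heart and limb (20.4 and 11.9 against 4.46 and 2.83 FPKM, log2 change -1.86 ± 0.45, adjusted p = 0.025, limma), and *ATOH1*, a factor of the nervous system and gut (5.65 and 5.91 against 1.03 and 1.14 FPKM, -1.70 ± 0.41, adjusted p = 0.026, limma). With no filter on low values both had an adjusted p of 0.17, and no gene of the whole limma fit passed by adjusted p, with 903 rises and 1518 falls by the threshold of the study. Without 1 library the adjusted p was 0.0034 to 0.12 for *HAND2* and 0.039 to 0.090 for *ATOH1*, and both stayed past the threshold of the study. The third class II gene that fell was *BHLHE22*, with a change of -1.43 and an adjusted p of 0.053.

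In the BMP pathway *SMAD5* rose by 1.06, the ligand *BMP6* by 1.07, and the ubiquitin ligases *SMURF2* and *SMURF1*, which act on SMADs and receptors, by 1.14 and 1.07. The decoy receptor *BAMBI* fell by 1.06, from 51.7 and 48.3 FPKM to 24.3 and 22.8 FPKM, and the SMAD corepressor *SKIL* fell by 1.09. *FIGLA*, on the oocyte marker list too, rose by 1.19. Adjusted p-values of these genes were 0.087 to 0.15 (limma). *FIGLA* reached the filter of 1 FPKM only through the siYTHDF2 libraries (0.61 and 0.43 FPKM in NC, 1.73 and 3.37 in siYTHDF2). *SKIL* reached it only through the NC libraries (2.72 and 1.12 FPKM, against 0.46 and 0.20). The filter thus favoured these directions, and *FIGLA* could not be fitted without siYTHDF2 replicate 2, nor *SKIL* without NC replicate 1. *FIGLA* kept the call in the other fits without 1 library, and each of the other genes lost it in at least 1. Without siYTHDF2 replicate 2 *SMAD5*, *SMURF2*, *SKIL* and *BAMBI* were at 0.77, 0.96, -0.94 and -1.01, and without siYTHDF2 replicate 1 *BMP6* and *SMURF1* were at 0.89 and 0.55. Without NC replicate 2 *SMAD5*, *BMP6*, *SMURF1* and *BAMBI* were at 0.91, 0.94, 0.81 and -1.10, and without NC replicate 1 *SMURF2* and *BAMBI* at 1.12 and -1.01, none of them called. The E proteins *TCF3*, *TCF4* and *TCF12* had changes of 0.42, 0.15 and -0.0040 with adjusted p of at least 0.53.

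**Figure D4:**
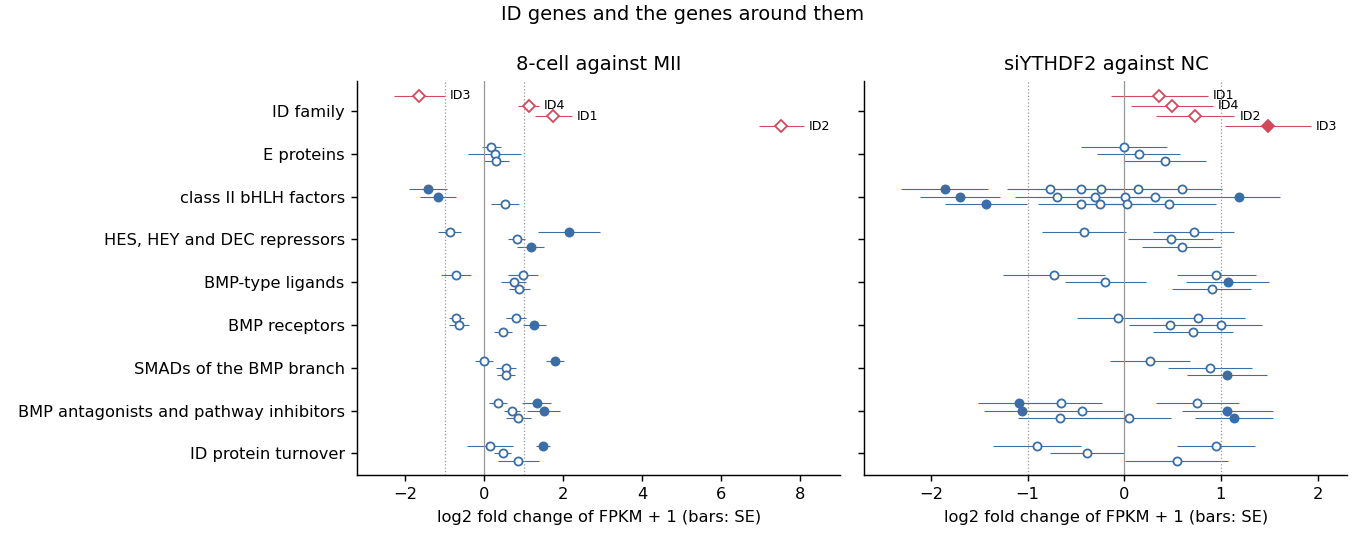
Log2 fold change of FPKM + 1 (bars, SE) of the ID genes and of the genes around them that passed the filter, for 8-cell against MII and for siYTHDF2 against NC. Filled points passed an unadjusted p under 0.05 and 2-fold (dotted lines), and ID genes are drawn hollow in the stage panel, where they were not tested. *ID2* lies at 7.53 in the stage panel, and *ID3* at 1.49 is the filled ID gene in the knockdown panel.

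Side by side, *ID4* was at 1.57 to 2.78 FPKM in the untreated 8-cell libraries and at 7.57 and 10.6 FPKM in the NC libraries, and *ID2* at 346 to 419 against 414 and 898 FPKM. These tables were normalized apart, the experiments differed and no comparison was made.

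For each ID gene, the 3 genes with the most similar course were those with the smallest root mean square (RMS) difference over the 9 untreated libraries, each gene centred on its own mean of log2(FPKM + 1). *ID2* had no close match. Its nearest were *SUPT4H1* at 0.90, *PMAIP1*, a proapoptotic BCL2 family gene, at 1.20 and *ARGFX* at 1.22. *ID3* was nearest to *NPM3*, a nucleoplasmin, at 0.36, to *ERMAP* at 0.51 and to *BCL2L10*, a BCL2 family gene of the oocyte, at 0.52. *ID1* was nearest to *TMEM134*, *WDR59* and *SLC39A12* at 0.33 to 0.36, and *ID4* to *CNRIP1*, *BCAR3* and *DENND2C* at 0.15 to 0.16. Genes that change little lie nearer to each other on this measure, and within the family the nearest pair was *ID1* and *ID4* at 0.61.

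The knockdown was not used to choose these genes. *BCL2L10* was at 117 and 244 FPKM in the NC and at 447 and 1102 FPKM in the siYTHDF2 libraries, a rise of 2.05 (adjusted p = 0.022, limma), and *NPM3* rose by 1.35 (adjusted p = 0.12, limma), but by 0.42 without siYTHDF2 replicate 2 and 1.07 without NC replicate 2, not called in either. *TMEM134* rose by 1.76 (adjusted p = 0.030, limma). With no filter on low values the adjusted p was 0.18 for *TMEM134* and 0.19 for *BCL2L10*, and without 1 library it was at most 0.19 and 0.12 (limma). The 3 genes nearest to *ID2* were not called, with changes of 0.28 for *SUPT4H1*, -0.33 for *PMAIP1* and -0.26 for *ARGFX*, and each of these turned sign without 1 of the NC libraries. Of those nearest to *ID1* and *ID4*, *WDR59* (-0.11), *SLC39A12* (0.49), *CNRIP1* (0.72), *BCAR3* (-0.93) and *DENND2C* (-0.83) were not called either. Of the 11 genes tested 3 were thus called higher, beside 9.48% of all genes. *ERMAP*, the other gene near *ID3*, was below the filter in the injected libraries.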

How the data were processed

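The deposited tables hold FPKM values per gene and library. Per the labels and the methods of the study, the authors used HISAT2 2.1.0 for alignment to ARS1, a goat assembly, dropped reads without a unique position, took counts from HTSeq and normalized each library to FPKM. Groups came from the labels, 0 columns of values were left unused, and names on more than 1 row were dropped. The 4 members, the gene lists and the tests were chosen with earlier results of these data known.

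In the untreated tables the steps of the FPKM values gave back library totals, with a tolerance of 0.02 in the search for the steps and the length scale. With the totals known, exon lengths and fragments were then found for 17366 of 17918 shared genes above 0. The injected tables give 2 decimals, and their depth is unknown. Intervals and the floor of 3 fragments cover counting error only where fragments are given.

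The test was limma 3.58.1 (lmFit, eBayes with trend, R 4.3.3) on log2(FPKM + 1), for genes whose mean reached 1 FPKM, the 9 untreated libraries in 1 fit and the 4 injected libraries in another. A fold change on this scale understates the change of low genes. Calls follow the threshold of the study, an unadjusted p under 0.05 and more than 2-fold, with the Benjamini-Hochberg value over all genes beside it. The study used DESeq2 on counts, which was not run here. All 4 members passed the filter in both fits. The fits were tested on simulated data. Nothing says that replicates came from separate animals, so p-values measure the spread between these libraries, which may be technical.

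Named were the 4 ID genes, TCF3, TCF4, TCF12 and *YTHDF2*, per list and comparison the called genes with the 2 largest rises and falls, and 3 genes nearest to each member. *BHLHE22* was named after its value was seen. ID genes had RefSeq symbols for 4 of 4 and list genes for 94 of 96, and no coordinates were used. The siRNA strands are those of the study, and no protein or promoter sequence was used here. Alternatives were another pseudocount, no filter, 3 rescalings, a replicate block and leaving out each library. Those chosen after seeing the data were voom on the recovered fragments, leaving out MII replicate 3 and 8-cell replicate 1 together, and a crossed block. Other steps ran in Python 3.11.15 (matplotlib 3.10.9, scipy 1.17.1, pandas 2.3.3, numpy 2.4.6).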

Additional observations from a re-analysis of the deposited data

How the results depend on the processing

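The ID values with the largest dependence on processing were those of genes near 0 in MII oocytes. With a pseudocount of 0.1, and with voom on the recovered fragments, *ID2* was 7.18 and 7.56 higher (log2) at the 4-cell and 9.09 and 9.47 higher at the 8-cell stage than in MII oocytes. *ID1* was then 3.31 and 3.92 higher at the 8-cell stage than in MII oocytes, and 2.78 and 3.30 higher than at the 4-cell stage. *ID4* was 0.62 and 0.75, 2.08 and 2.30, and 1.46 and 1.55 higher in the 3 contrasts. No rescaling turned the direction of an ID gene between stages. In the knockdown, *ID2* passed the threshold of the study under quantile normalization (change of 1.0, adjusted p = 0.14, limma). The adjusted p of *ID3* (limma) was 0.064 to 0.20 over the alternatives that kept every library, other than the crossed block. It was 0.0024 with the crossed block, a pairing that no label gives and that was chosen after seeing the data.

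Leaving out each library gave -0.13 to 0.58, 1.48 to 2.14 and 1.21 to 1.88 for *ID1* at 4-cell and 8-cell against MII and 8-cell against 4-cell, 5.17 to 6.46, 7.07 to 8.36 and 1.78 to 2.00 for *ID2*, -0.81 to 0.66, -2.05 to -1.40 and -2.31 to -0.83 for *ID3*, and 0.066 to 0.33, 0.96 to 1.29 and 0.84 to 1.05 for *ID4*. *ID4* could not be fitted without 8-cell replicate 1, where its mean was below the filter. In the knockdown the ranges were -0.38 to 1.10 for *ID1*, 0.17 to 1.29 for *ID2*, 0.90 to 2.07 for *ID3* (adjusted p 0.0014 to 0.35) and 0.27 to 0.71 for *ID4*. A library left alone in its group was taken to vary like the other group.

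Relative to MII oocytes at the 8-cell stage, *TCF3* was at -0.081 with median ratios, -0.025 with quantiles, -0.092 with the shared genes as the total and -0.43 without MII replicate 3 and 8-cell replicate 1. *TCF4* was at -0.15, -0.19 and -0.19 under the 3 rescalings, and *TCF12* at -0.021 with quantiles and -0.019 with the shared total. Leaving out 1 library gave -0.57 to 1.01 for *TCF3* there, and in the knockdown -0.16 to 0.46 for *TCF4* and -0.34 to 0.33 for *TCF12*, which was at 0.0077 with quantiles. None of these passed the threshold, and the cause was not tested. Of the genes nearest to a member, *ARGFX* was at 0.071 with quantiles in the knockdown, and without 1 library *WDR59* was at -0.82 to 0.60, *SUPT4H1* at -0.29 to 0.85, *PMAIP1* at -0.68 to 0.013 and *ARGFX* at -0.77 to 0.25.

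Among the list genes, rises at the 4-cell stage numbered 3 under each of the 3 rescalings in place of 9. Falls numbered 2 with a pseudocount of 0.1, no filter, quantiles or voom, 3 with median ratios or without both doubted libraries, and 4 with the shared total. At the 8-cell stage rises were 11 with voom and 4 without both libraries, and falls 5, 6 and 6 under the rescalings. From the 4-cell to the 8-cell stage rises were 4 with a pseudocount of 0.1 and 1 without both libraries, and 1 gene fell with no filter. In the knockdown 9 rose and 3 fell with quantiles. Leaving out 1 library gave 7 to 10 rises and 0 to 2 falls at the 4-cell stage, 5 to 10 and 0 to 2 at the 8-cell stage, 1 to 6 rises between the embryo stages, and 3 to 8 rises and 3 to 7 falls in the knockdown. Counts moved by over 1.5 times without MII replicate 2 (0 falls at both stages), MII replicate 3 or 4-cell replicate 2 (2 falls in 4-cell embryos), 8-cell replicate 1 or 3 (1 fall against MII), 4-cell replicate 1 or 3 or 8-cell replicate 1 (1 rise between the embryo stages), 8-cell replicate 2 (6 such rises), NC replicate 1 (8 rises, 3 falls) and NC replicate 2 (3 rises).

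The replicate numbers did not pair the samples. Deviations of same-numbered libraries from their group means correlated at -0.51 to 0.20 in the untreated and at -0.15 in the injected libraries. Those of libraries with different numbers correlated at -0.37 to 0.51 and at 0.15. With 2 libraries per group the injected values had to mirror each other. With the replicate block, the knockdown gave 78 rises and 383 falls by adjusted p in place of 227 and 651, and *ID3* had an adjusted p of 0.087 with the block. With the crossed pairing, chosen after seeing the data, the counts were 688 and 1378.

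In MII oocytes *ID1* and *ID2* rest on 1 to 324 fragments per library, and the depth of the injected libraries is unknown. The stage and the study of the untreated libraries cannot be told apart.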
